A study of Mus musculus with 12 samples.

Results

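The SR and hnRNP proteins are the 2 large families of RNA-binding proteins that decide which exons a spliced messenger RNA keeps. Their genes were taken from the deposited table by name, as the protein-coding rows called Srsf with a number, Hnrnp, Tra2a or Tra2b, or Clk1 to Clk4. This gave 37 of the 43346 genes listed, made up of 11 Srsf, 20 Hnrnp, 2 Tra2 and 4 Clk genes, and 36 of them had enough counts to be tested. Kidney RNA was measured in 6 sham and 6 HP-AKI samples from mice, all at day 1. AKI is acute kidney injury, and HP-AKI is used in this field for the heme protein-induced form, in which myoglobin or hemoglobin floods the tubules, but the abbreviation is left unexplained in the labels. Strain, sex, age and the agent that caused the injury are not given in the sources used here. Sham libraries are numbered 1 to 6 and HP-AKI libraries 7, 8, 9, 11, 12 and 13, as in the labels.

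SR proteins bind exonic enhancers through RNA recognition motifs and recruit the splicing machinery through a tail rich in arginine and serine. The CLK kinases phosphorylate that tail, which moves SR proteins out of nuclear speckles and sets their activity, and the TRA2 proteins work beside them as activators. The hnRNP proteins coat nascent transcripts, often oppose the SR proteins at the same exon, and also serve in mRNA export, stability and translation. Many genes of both families limit their own level by splicing in an exon with a premature stop, so that the transcript is removed by nonsense-mediated decay, or by keeping an intron. In the GENCODE M21 annotation, 25 of the 36 tested members (69.4%) had at least 1 transcript of the nonsense-mediated decay class, against 26.8% of 14813 tested protein-coding genes. A retained-intron transcript was annotated for 28 of the 36 (77.8%), against 55.1%. The counts used here sum all transcripts of a gene, so productive and unproductive forms cannot be told apart.

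Each library held between 31624522 and 41951129 counts assigned to genes. Levels are given as CPM, the counts scaled to a common library total after TMM scaling, a factor per library that assumes most genes to be alike. A gene passed when its adjusted p was under 0.05 in edgeR's quasi-likelihood F-test with Benjamini-Hochberg adjustment over all 17470 tested genes. Of these, 37.7% passed as higher and 35.2% as lower in HP-AKI, with a median log2 fold change of 0.04, or 0.16 when libraries were scaled by size alone. Nothing in the labels says that libraries are separate animals, so p-values measure the spread between libraries, which may be technical. How reads from overlapping genes were assigned is not given in the sources used here. In GENCODE M21, 16 members share exon bases with another gene, 12 of them with a gene on the opposite strand. Hnrnpm shares 1169 of 7956 exon bases with March2 and Hnrnpul2 360 of 7108 with AC129217.1, both on the same strand. Shared bases are those of GENCODE M21, in which 25 members have the coordinates of the deposited table. The samples are bulk tissue, in which fewer cells of a type and less RNA per cell cannot be told apart. Marker genes of the proximal tubule were abundant in sham, with a summed level of 8785 to 10337 CPM, and all 6 fell, to 1646 to 2695 CPM.

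Libraries sham 1, sham 2 and HP-AKI 8 stood apart from the rest of their groups, and many splicing genes were highest in them. The slope of all genes on GC content, in log2 units per 10 percentage points and relative to the group mean, was -0.28 in sham 1, -0.41 in sham 2 and -0.38 in HP-AKI 8, against -0.15 to 0.29 in the other libraries. Of the 36 tested members, 29 had their highest sham value in sham 1 or sham 2 and 25 their highest HP-AKI value in HP-AKI 8. The transcripts of the members are poor in G and C, at a median of 43.3% against 49.5% for all tested genes. Without these 3 libraries 22 members were higher and 4 lower, the same counts as with all 12. With a GC correction in each library 25 were higher and 4 lower. That correction was taken relative to the mean of all 12 libraries, so it also removes any GC trend between the groups.

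**Figure D1:**
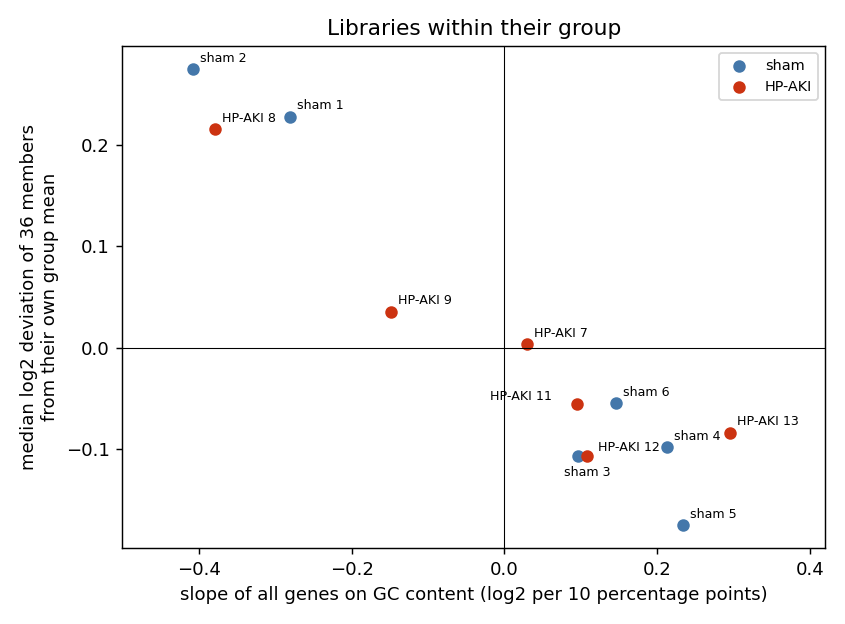
Median log2 deviation of the 36 tested members from their own group mean (vertical axis) against the slope of all genes on GC content in log2 units per 10 percentage points (horizontal axis), 1 point per library. Sham 1, sham 2 and HP-AKI 8 have slopes of -0.28, -0.41 and -0.38 and lie above the other libraries.

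To show the regulatory sequence of related members that both rose, promoter windows were taken from RefSeq for GRCm38.p6, where 34 of the 37 members were matched. The windows run from 250 bases before to 50 bases after the start. Clk1, Hnrnpll and Hnrnpul2 were not matched. The first pair are Hnrnpd and Hnrnpdl, related neighbours on chromosome 5, at chr5:99978889-99979188 and chr5:100039173-100039472, both on the minus strand. The second pair are Tra2a at chr6:49264003-49264302 and Tra2b at chr16:22265956-22266255, also on the minus strand. All 4 genes rose, and in each pair 1 gene rose more than the other. Windows are written 5′ to 3′ along the gene, with matches to the motifs below in capitals.
Hnrnpd: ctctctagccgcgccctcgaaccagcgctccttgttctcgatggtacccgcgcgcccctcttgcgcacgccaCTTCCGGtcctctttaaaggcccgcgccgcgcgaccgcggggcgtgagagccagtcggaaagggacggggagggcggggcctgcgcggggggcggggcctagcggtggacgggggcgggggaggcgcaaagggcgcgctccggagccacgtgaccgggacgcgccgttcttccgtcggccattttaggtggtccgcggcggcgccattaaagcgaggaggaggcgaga
Hnrnpdl: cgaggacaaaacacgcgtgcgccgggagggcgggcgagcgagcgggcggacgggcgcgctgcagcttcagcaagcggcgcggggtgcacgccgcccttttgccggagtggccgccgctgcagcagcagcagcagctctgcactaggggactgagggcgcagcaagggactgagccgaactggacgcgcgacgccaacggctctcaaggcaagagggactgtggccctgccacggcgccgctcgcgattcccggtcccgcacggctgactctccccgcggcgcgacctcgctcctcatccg
Tra2a: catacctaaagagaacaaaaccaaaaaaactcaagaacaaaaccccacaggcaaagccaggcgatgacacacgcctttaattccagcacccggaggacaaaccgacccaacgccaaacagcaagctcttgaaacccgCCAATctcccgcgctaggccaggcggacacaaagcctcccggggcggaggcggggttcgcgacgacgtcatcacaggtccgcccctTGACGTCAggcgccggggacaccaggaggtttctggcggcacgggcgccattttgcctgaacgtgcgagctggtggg
Tra2b: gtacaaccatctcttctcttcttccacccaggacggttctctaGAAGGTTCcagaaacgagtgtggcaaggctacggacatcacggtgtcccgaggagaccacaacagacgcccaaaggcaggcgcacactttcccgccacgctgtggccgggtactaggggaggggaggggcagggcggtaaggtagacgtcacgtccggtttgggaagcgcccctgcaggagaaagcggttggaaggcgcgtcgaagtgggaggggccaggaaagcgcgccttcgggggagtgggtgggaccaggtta

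The motifs searched on both strands were TGACGTCA, the site of CREB and ATF factors, TGANTCA, the AP-1 site, GAANNTTC, the core of a heat shock element, CCAAT, the CCAAT box, and CCGGAAG, an ETS site. No motif contains another. The Hnrnpd window had 1 ETS match, read on the opposite strand, whose capitals begin 178 bases before the start. That of Hnrnpdl had no match to any of them. The Tra2a window had TGACGTCA 27 bases and CCAAT 113 bases before the start, and that of Tra2b had GAANNTTC 207 bases before it. Among 46 windows of the 34 members, 2 (4.35%) held TGACGTCA, against 1.79% of 32851 windows of all genes, and 1 (2.17%) held TGANTCA, against 7.81%. The heat shock core was in 6 (13.04%) against 7.86%, CCAAT in 23 of the 46 (50%) against 37.4%, and the ETS site in 11 (23.9%) against 8.86%. Several windows can belong to 1 gene and overlap, and a match shows only that these letters are present.

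Splicing genes were more often higher than lower in the injured kidney, and the changes were moderate in size. Of 36 tested members, 22 rose (61.1%, against 37.7% of all tested genes) and 4 fell (11.1%, against 35.2%), while 10 did not pass. The share that passed in either direction, 72.2%, was close to the 72.8% of all tested genes. The median log2 fold change of the members was 0.34, within a range of -0.81 to 1.26. A change of at least 1.5-fold was passed by 8 members as higher and by 1 as lower, against 27.3% and 27.0% of all tested genes, where 54.3% passed in either direction. Hnrnpdl and Hnrnpab, 2 of the 36, were at least 2-fold higher and no member was 2-fold lower, against 16.1% and 17.1% of all tested genes. The groups did not overlap in 13 of the members that rose and in 1 of those that fell, together 38.9%, against 26.7%, 25.8% and together 52.4% of all tested genes. Of the 26 members that passed, 24 did so in the same direction in all 21 alternative analyses, the exceptions being Hnrnpm and Hnrnpa0.

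**Figure D2:**
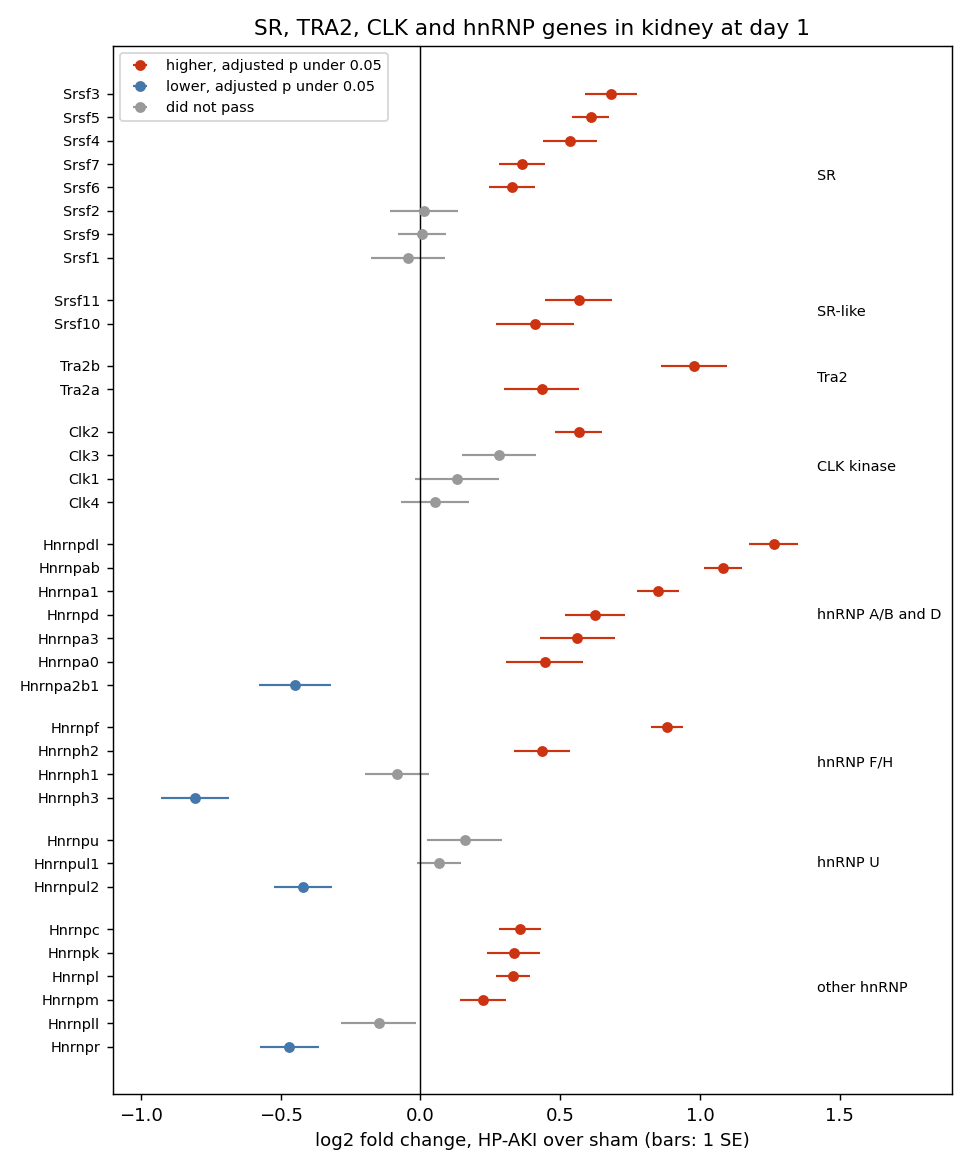
Log2 fold change of HP-AKI over sham (horizontal axis) for the 36 tested members, grouped by family, with bars of 1 SE. Red points passed as higher (22), blue points as lower (4) and grey points did not pass (10), and the values run from -0.81 for Hnrnph3 to 1.26 for Hnrnpdl.

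Among the 8 SR proteins with the classical layout, 5 rose and none fell past the threshold, against 37.7% and 35.2% of all tested genes. Srsf3, the smallest SR protein and a regulator of splicing and mRNA export, had a lowest, median and highest level of 162.6, 177 and 223 CPM in sham and of 277, 298 and 350 CPM in HP-AKI. Every HP-AKI library lay above every sham library, and the log2 fold change was 0.68 ± 0.09 (SE, adjusted p = 1e-05, edgeR). Srsf5, an SR protein known to be induced by insulin, was the most abundant of them in CPM, at 447, 503 and 539 CPM in sham and 715, 769 and 790.3 CPM in HP-AKI. Its groups were tight and did not overlap, with a log2 fold change of 0.61 ± 0.07 (SE, adjusted p = 6.61e-07).

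Srsf4 and Srsf6 are close relatives of Srsf5. Srsf4 was expressed at 20.4, 21.01 and 24.3 CPM in sham and 26.6, 30.5 and 39.7 CPM in HP-AKI, without overlap, and rose by 0.54 ± 0.10 (SE) on the log2 scale. It shares 1532 of its 3561 exon bases with a transcript on the opposite strand, Gm12992, and these counts cannot be assigned to 1 strand. Srsf6 rose by 0.33 ± 0.08, from 216, 237 and 291 CPM to 284, 305 and 342 CPM, with 5 of 6 HP-AKI libraries above all sham libraries. Srsf7, the SR protein with a zinc knuckle, rose by 0.36 ± 0.08, from 80.3, 89.9 and 103 CPM to 95.7, 118 and 124 CPM, and its groups overlapped in 1 HP-AKI library.

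The other 3 SR proteins, Srsf1, Srsf2 and Srsf9, did not pass. Srsf1 (SF2/ASF), which selects among competing splice sites, had 231, 256 and 361 CPM in sham and 218, 260.1 and 340 CPM in HP-AKI. Srsf2 (SC35), the marker protein of nuclear speckles, had 178, 189 and 258 CPM against 180.4, 200.3 and 266 CPM. Srsf9, a near relative of Srsf1, had 14.9, 15.9 and 17.8 CPM against 14.3, 16.2 and 18.3 CPM. In all 3 the groups overlapped, the log2 fold changes were -0.05 ± 0.13, 0.01 ± 0.12 and 0.01 ± 0.09 (SE), and the sign of each changed among the alternatives. Srsf2 shares exon bases with Mettl23 and Mfsd11 on the opposite strand.

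Of the SR-like genes, Srsf10 and Srsf11 rose and Srsf12 was too rare to test. Srsf10, which turns into a splicing repressor when it loses its phosphates under heat stress, went from 86.3, 90.1 and 135 CPM to 118, 132 and 180.3 CPM, a log2 fold change of 0.41 ± 0.14 (SE, adjusted p = 0.0159, edgeR). Sham 1 and sham 2, at 130.045 and 135 CPM, lay within the HP-AKI range while the other 4 sham libraries lay below it, and without HP-AKI 8 the log2 fold change was 0.30. Srsf11, a speckle protein that binds U2AF, rose by 0.57 ± 0.12, from 172, 209 and 275 CPM to 289.7, 319 and 409 CPM, without overlap. Srsf12 had 17 counts over all sham libraries and 76 over all HP-AKI libraries, at 0.0304 to 0.182 CPM and 0.198 to 0.507 CPM. Its groups did not overlap, at a depth of 1 to 22 counts a library.

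Both TRA2 genes rose, Tra2b more than Tra2a. Tra2b, which activates exons with GAA repeats, was at 97.9, 107 and 133 CPM in sham and 180.2, 215 and 299 CPM in HP-AKI. No library of one group reached the other, and the log2 fold change was 0.98 ± 0.12 (SE, adjusted p = 2.51e-06), or 0.86 without HP-AKI 8, which held the highest value. Tra2a, its relative with the same kind of target, had 74.7, 82.0 and 109 CPM against 92.9, 112 and 167 CPM, with 4 of 6 HP-AKI libraries above all sham libraries. Its log2 fold change of 0.43 ± 0.13 (SE, adjusted p = 0.0088) was 0.29 without HP-AKI 8 (adjusted p = 0.0145), within a range of adjusted p that stayed under the threshold in all 21 alternatives. The Tra2b gene lies at chr16:22244549-22266005 and Tra2a at chr6:49243921-49264052, as the deposited table lists them for GRCm38.

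Of the 4 CLK kinases, Clk2 alone passed, against 72.8% of all tested genes. Clk2, at 23.5, 27.8 and 30.8 CPM in sham and 37.3, 40.7 and 45.2 CPM in HP-AKI, rose by 0.57 ± 0.08 (SE, adjusted p = 1.98e-05, edgeR) without overlap. Clk3 had 23.0, 31.8 and 35.5 CPM against 30.3, 35.7 and 47.7 CPM (log2 fold change 0.28 ± 0.13, adjusted p = 0.0679) and passed in 3 of the 21 alternatives. In GENCODE M21 it shares 1284 of 8450 exon bases with Edc3 on the opposite strand. Its deposited gene length is 2494 bases, so how many of the shared bases were counted is not known. Clk1 and Clk4, the pair whose introns are known to be held back until stress or kinase inhibition releases them, did not pass. Clk1 had 225, 256 and 336 CPM against 256, 259.8 and 457 CPM, and Clk4 95.9, 108 and 145 CPM against 107, 115 and 160 CPM. HP-AKI 8 was the highest library for both, at 457 and 160 CPM, and without it the log2 fold changes went from 0.13 to -0.05 and from 0.05 to -0.06. With a GC correction both passed, at 0.20 (adjusted p = 0.0278) and 0.14 (adjusted p = 0.0389). GENCODE M21 lists 7 retained-intron transcripts each for Clk1 and Clk4.

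The hnRNP A/B and D genes include Hnrnpdl and Hnrnpab, the members with the largest rises. All 7 passed, 6 as higher and 1 as lower, where 72.8% of all tested genes passed, 37.7% as higher and 35.2% as lower. Hnrnpdl, a relative of AUF1 found in both nucleus and cytoplasm, rose the most of the 36 tested members. It was at 116, 124 and 158 CPM in sham and 298, 314 and 342 CPM in HP-AKI, a 2.40-fold difference in mean level. No library overlapped, and the log2 fold change was 1.26 ± 0.09 (SE, adjusted p = 6.02e-09). Hnrnpd (AUF1), which binds AU-rich elements of short-lived mRNAs, rose by 0.62 ± 0.11, from 83.4, 86.0 and 118 CPM to 133, 146 and 169 CPM, also without overlap. The Hnrnpd gene spans chr5:99958426-99978938 and Hnrnpdl chr5:100033577-100039664.

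Hnrnpab, a single-stranded nucleic acid-binding protein also known as CBF-A, was at 161, 177 and 197 CPM in sham and 359.8, 376 and 409 CPM in HP-AKI. The levels differed 2.12-fold without overlap (log2 fold change 1.08 ± 0.07, SE, adjusted p = 1.99e-09). Of its 2782 exon bases, 809 are shared with Phykpl on the opposite strand. Hnrnpa1, the best-studied splicing repressor of the family, was at 197, 222 and 228 CPM against 339, 396 and 450.1 CPM, likewise without overlap, and rose by 0.85 ± 0.08 (adjusted p = 9.03e-08). Its gene is at chr15:103240432-103244955, and since it has processed pseudogenes, reads may be split among copies in a way the sources used here do not state. The same holds for Hnrnpa3, which rose by 0.56 ± 0.13 from 389.8, 427 and 616 CPM to 568, 671 and 897 CPM, with 4 HP-AKI libraries above all sham libraries. Hnrnpa0, an intronless gene that stabilises cytokine mRNAs, rose by 0.44 ± 0.14 with overlapping groups (54.9 to 90.6 and 76.5 to 115 CPM) and did not pass with a GC correction (0.31, adjusted p = 0.213). Over its 21 alternatives its adjusted p ran from 6.63e-06 to 0.213.

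Hnrnpa2b1, which sorts RNAs for transport as well as for splicing, went the other way. It had the highest level of all members in both groups, at 1004, 1089 and 1476 CPM in sham and 720.1, 813 and 1119 CPM in HP-AKI. Of the HP-AKI libraries, 5 of 6 lay below every sham library, while HP-AKI 8 lay within the sham range. The log2 fold change was -0.45 ± 0.13 (SE, adjusted p = 0.00542), a mean level 1.36-fold lower.

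**Figure D3:**
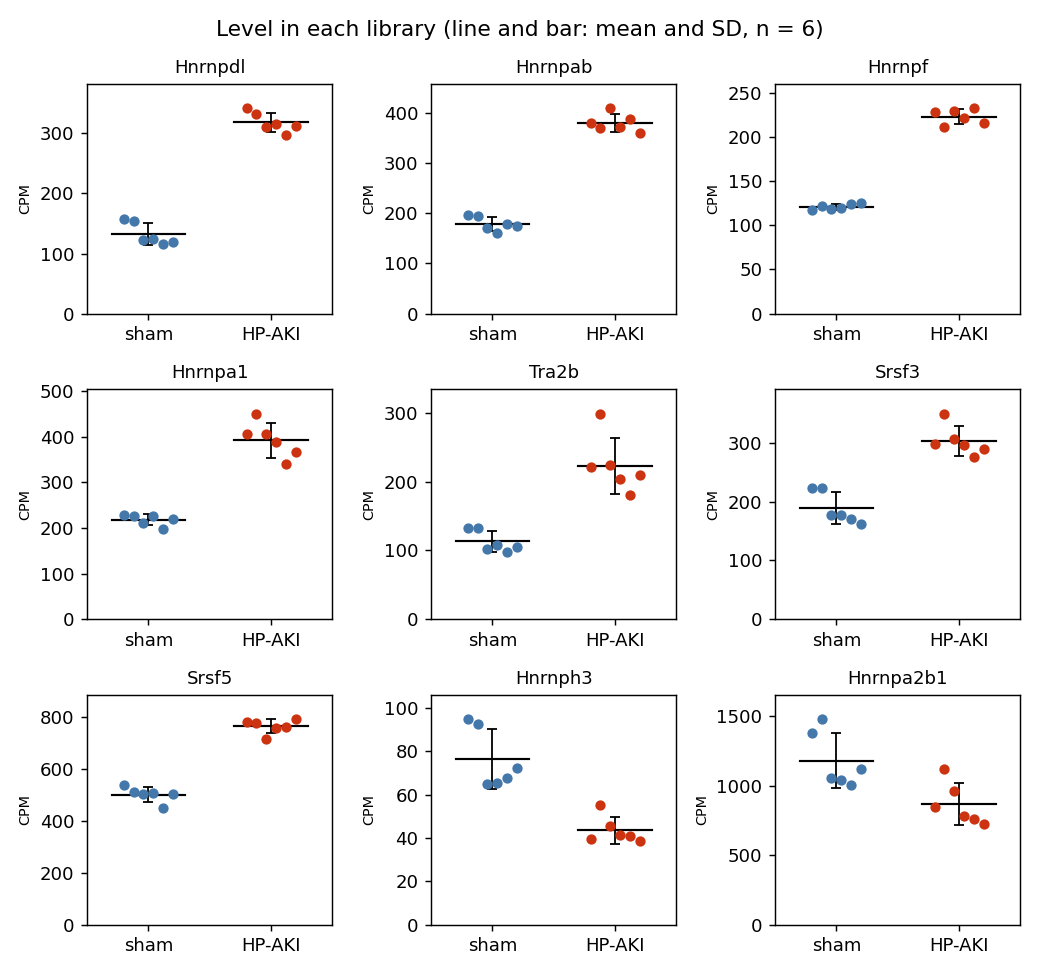
Level in CPM (vertical axes, from 0) of 9 members in each library, sham in blue and HP-AKI in red, with the mean and SD of 6 libraries. The groups are apart in all but Hnrnpa2b1, where HP-AKI 8 at 1119 CPM lies within the sham range, and Hnrnph3 and Hnrnpa2b1 are the members shown that are lower in HP-AKI.

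The hnRNP F/H genes, whose products bind runs of G, moved in both directions. Hnrnpf rose from 117, 121 and 125 CPM to 211, 225 and 232 CPM. Its sham spread was the smallest of any member (a coefficient of variation of 2.73%), no libraries overlapped, and the log2 fold change was 0.88 ± 0.06 (SE, adjusted p = 2.32e-09). Hnrnph2, a copy of the family on the X chromosome, rose by 0.44 ± 0.10, from 111, 119 and 155 CPM to 155, 169 and 200.3 CPM. Hnrnph1, the most abundant of the 4 in CPM, did not pass, at 329, 379 and 496 CPM against 335, 355 and 477 CPM (log2 fold change -0.08 ± 0.11).

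Hnrnph3, the shortest protein of this group, had the largest fall of the 36 tested members. It was at 65.1, 69.9 and 94.8 CPM in sham and 38.4, 41.2 and 55.4 CPM in HP-AKI, so that every HP-AKI library lay below every sham library. The log2 fold change was -0.81 ± 0.12 (SE, adjusted p = 2.32e-05, edgeR), a mean level 1.75-fold lower. The gene spans chr10:63014664-63024217 and shares 115 exon bases with Rufy2 on the opposite strand.

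In the hnRNP U group, which binds chromatin-associated RNA and scaffold DNA, Hnrnpul2 fell and the others did not pass. Of all tested genes, 35.2% passed as lower and 72.8% in either direction. Hnrnpul2 was at 248, 288 and 378 CPM in sham and 205, 228 and 262 CPM in HP-AKI, with 5 of 6 HP-AKI libraries below all sham libraries, a log2 fold change of -0.42 ± 0.10 (SE, adjusted p = 0.00179). Hnrnpu itself, also called SAF-A, had 356, 394 and 529 CPM against 372, 438 and 631 CPM (0.16 ± 0.13). It passed with library size only (0.28, adjusted p = 0.0487) and with a GC correction (0.23, adjusted p = 0.00221). Hnrnpul1, implicated in the DNA damage response, had 64.5, 78.1 and 80.1 CPM against 67.8, 80.5 and 86.8 CPM (0.07 ± 0.08).

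Of the remaining 6 hnRNP genes, 4 rose, 1 fell and 1 did not pass, where 37.7% of all tested genes rose and 35.2% fell. Hnrnpl, which binds CA repeats, rose by 0.33 ± 0.06 (SE), from 129, 138 and 144 CPM to 162, 171 and 183 CPM, and Hnrnpc, which binds U tracts and keeps cryptic exons out, by 0.36 ± 0.08, from 174, 188 and 205 CPM to 207, 244 and 270.0 CPM. In both the groups did not overlap. Hnrnpk, a protein of C-rich sequences with many roles in transcription and translation, rose by 0.33 ± 0.10, from 326, 344 and 427 CPM to 408, 458 and 544 CPM, with 4 HP-AKI libraries above all sham libraries. Hnrnpm, which favours GU-rich sites, rose by 0.23 ± 0.08 (adjusted p = 0.0227), from 111, 117 and 149 CPM to 138, 142 and 158 CPM. That call ended without sham 3, 4, 5 or 6 (0.19 to 0.21), with upper-quartile scaling (0.18, adjusted p = 0.0594) and with no filter on low counts (0.19, adjusted p = 0.0569), within adjusted p of 0.000295 to 0.0639 over the 21 alternatives, and library size only gave 0.35.

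Hnrnpr, a relative of SYNCRIP that binds mRNA in axons and the nucleus, fell by 0.47 on the log2 scale (SE 0.11, adjusted p = 0.00102, edgeR). It was at 74.5, 82.1 and 105 CPM in sham and 55.5, 59.5 and 76.1 CPM in HP-AKI, and only HP-AKI 8 reached into the sham range. Hnrnpll, known for switching CD45 exons in lymphocytes, had 55.3, 60.0 and 86.9 CPM against 50.5, 55.6 and 79.6 CPM (-0.15 ± 0.13). It passed as lower without HP-AKI 8 (-0.27, adjusted p = 0.0411). Ptprc, which encodes CD45, fell by 0.79 ± 0.17 on the log2 scale.

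Per kilobase of gene length, which allows levels to be compared between genes, Hnrnpa2b1 was first in both groups. In sham Hnrnpa2b1 led at 289 ± 48.7 CPM per kilobase (SD, n = 6), followed by Srsf5 at 125 ± 7.43, Hnrnpa1 at 113 ± 6.22 and Hnrnpa3 at 86.5 ± 16.9. In HP-AKI Hnrnpa2b1 stood at 212 ± 36.9, Hnrnpa1 at 204 ± 19.8, Srsf5 at 191 ± 6.79 and Hnrnpab at 136.5 ± 6.20 CPM per kilobase. The first 3 of these were within their spread of each other in HP-AKI, whereas in sham Hnrnpa2b1 was well above the next gene. Hnrnpdl moved from place 21 to place 10 among the 37 members, Hnrnpab from 9 to 4 and Hnrnph3 from 24 to 31. Srsf12 was last in both groups, at 0.0252 and 0.107 CPM per kilobase.

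For 15 pairs of close relatives, the ratio of the 2 genes within the same library was compared between the groups. This ratio does not depend on a scaling factor per library, but it can depend on GC content where the 2 genes differ in it. Hnrnpl has 54.2% GC and Hnrnpll 40.7%. Their log2 ratio was lowest in sham 1 (0.86) and sham 2 (0.65) among sham libraries, and in HP-AKI 8 (1.02) among HP-AKI libraries. No GC correction was applied to the ratios. The ratio passed in 12 of 15 pairs (exact two-sided permutation test over all assignments of the libraries, Benjamini-Hochberg over the 15 pairs). In 8 pairs the groups did not overlap, which gives the smallest p the design allows, 0.00216 (exact permutation, adjusted 0.00406). Of all tested genes taken singly, 72.8% passed in edgeR and 52.4% had groups that did not overlap. The share over pairs of unrelated genes was not computed, so these counts do not set relatives apart. Hnrnpa1, Hnrnph1 and Srsf6 each recur among the pairs. The largest shift among well-counted pairs was that of Hnrnpa1 to Hnrnpa2b1. There were 0.186 counts of Hnrnpa1 for each count of Hnrnpa2b1 in sham and 0.457 in HP-AKI, a log2 difference of 1.295 between mean log2 ratios of -2.42 ± 0.19 and -1.13 ± 0.14 (SD, n = 6 each, exact permutation). The ratio of Hnrnph1 to Hnrnph2 dropped by 0.52, from 3.11 to 2.17, and Hnrnpf gained on Hnrnph1 by 0.96, from a ratio of 0.308 to 0.599. Hnrnpf has 49.0% GC and Hnrnph1 37.1%. The log2 ratio of Hnrnpf to Hnrnph1 was lowest in sham 1 (-1.95) and sham 2 (-2.02) among sham libraries, and in HP-AKI 8 (-1.18) among HP-AKI libraries.

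Hnrnpd gave way to Hnrnpdl, with a ratio of 0.717 in sham and 0.461 in HP-AKI and a log2 difference of -0.64. Between the TRA2 genes the ratio of Tra2a to Tra2b went from 0.765 to 0.523, a log2 difference of -0.55, or -0.57 without HP-AKI 8. The ratio therefore moved as much without the library in which both genes were highest. Within the SR proteins, Srsf3 gained on Srsf7 by 0.33 and Srsf5 on Srsf6 by 0.28, both without overlap. The log2 ratio of Srsf10 to Srsf12 differed by -1.83, a value that rests on the 17 sham counts of Srsf12.

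The other 4 pairs that passed had overlapping groups. Clk2 gained on Clk3 by 0.28 (adjusted p = 0.0216, exact permutation). Hnrnpa1 gained on Hnrnpa3 by 0.28, Hnrnpl on Hnrnpll by 0.47 and Hnrnpul1 on Hnrnpul2 by 0.47 (adjusted p = 0.0271, 0.0266 and 0.0266). These last 3 calls ended without HP-AKI 7, 11, 12 or 13, at adjusted p of 0.0502 to 0.0568 (exact permutation). The differences were then 0.25 to 0.28 for Hnrnpa1 to Hnrnpa3, 0.41 to 0.46 for Hnrnpl to Hnrnpll and 0.41 to 0.46 for Hnrnpul1 to Hnrnpul2. The ratios of Srsf1 to Srsf9 (-0.04), Srsf4 to Srsf6 (0.20) and Clk1 to Clk4 (0.06) did not pass.

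**Figure D4:**
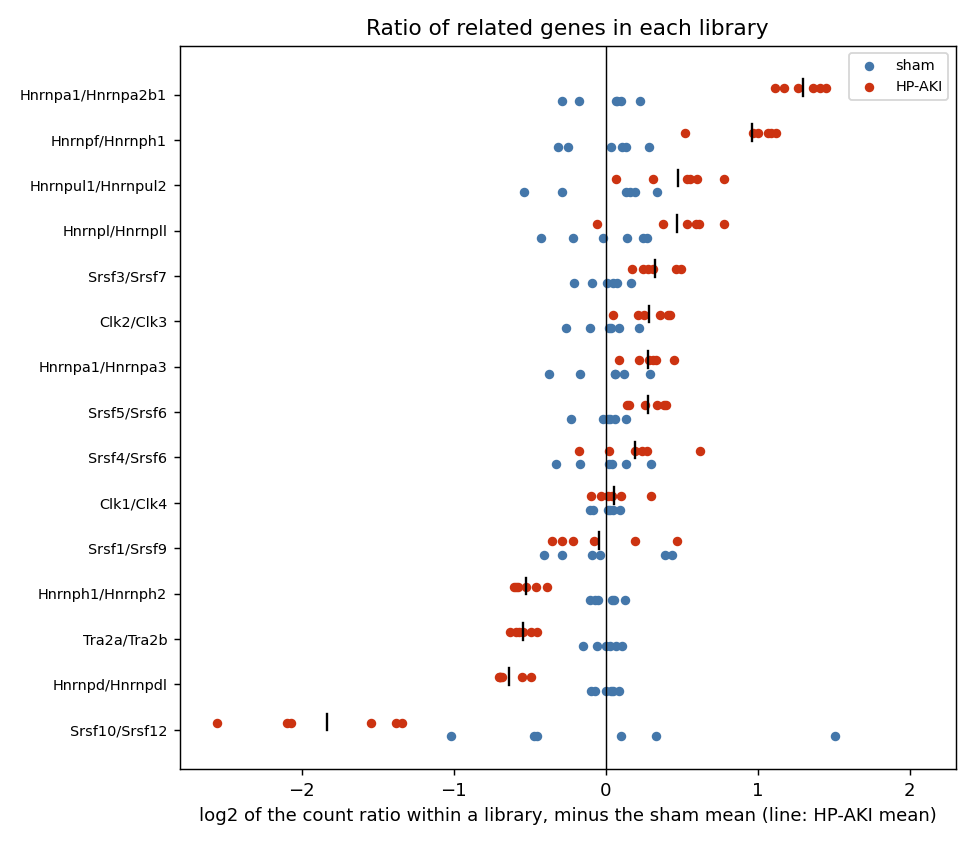
Log2 ratio of the counts of 2 related genes in each library minus the sham mean of that pair (horizontal axis) for 15 pairs, sham in blue and HP-AKI in red, with a line at the HP-AKI mean. The mean shifts run from -1.83 for Srsf10/Srsf12 to 1.295 for Hnrnpa1/Hnrnpa2b1, and the groups are apart in 8 pairs.

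The other splicing and decay genes on 7 lists were also more often higher than lower. These lists, like the members, were chosen with earlier results of these data known, so they give no independent support. Of 108 such genes, all tested, 73 rose (67.6%), 9 fell (8.33%) and 26 did not pass, with a median log2 fold change of 0.49, against 37.7% and 35.2% of all tested genes and a median of 0.04. Of 12 hnRNP proteins under other symbols, 10 rose and 1, Pcbp4, fell. The number lower was 2 in several alternatives, among them single libraries left out, and 0 with library size only. Ptbp1 and Ptbp2, the polypyrimidine tract-binding repressors, rose by 1.21 ± 0.16 and 1.25 ± 0.13 (SE). Of 20 SR-related proteins, 13 rose and none passed as lower. Rnps1, a part of the exon junction complex, rose by 1.57 ± 0.10 and Sfswap, which controls the splicing of its own transcript, by 1.15 ± 0.13, while the abundant speckle protein Srrm2 did not pass (0.07 ± 0.08).

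Of 7 kinases and importers of SR proteins, 2 rose and 1 fell, or 4 rose with library size only. Srpk3, a muscle-enriched SR kinase at a low level here, rose by 1.48 ± 0.19 (SE) and Dyrk1a, which also phosphorylates splicing factors, by 1.26 ± 0.10. Srpk2 fell by 0.35, and the importin Tnpo1 (0.22 ± 0.11) did not pass. Among 24 proteins of the U1 and U2 particles and the Sm core, 19 rose and none passed as lower, with Sf3b4 at 1.64 ± 0.11, Sf3a2 at 1.27 ± 0.27 and Sf3b1, the branch-site protein, at 0.50 ± 0.13. Among 10 proteins of the later spliceosome 7 rose, among them Snrnp40 (0.73 ± 0.08) and Prpf31 (0.59 ± 0.08), Cdc5l fell (-0.29 ± 0.10) and the core protein Prpf8 did not pass (-0.03 ± 0.06).

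Of 21 other regulators of alternative splicing, 12 rose and 5 fell. Rbfox2 rose by 0.93 ± 0.07 (SE) and the abundant Rbm39 by 0.65 ± 0.12, and Khdrbs3, a relative of Sam68, fell by 1.304 on the log2 scale (SE 0.09) along with Tia1, Rbm4, Rbm5 and Rbm10. Of 14 genes of nonsense-mediated decay and the exon junction, 10 rose and 1, Smg6, fell. Magoh, of the exon junction core, rose by 0.99 ± 0.08, Smg9 by 0.97 ± 0.19 and the kinase Smg1, the list's most abundant member, by 0.75 ± 0.10.

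**Figure D5:**
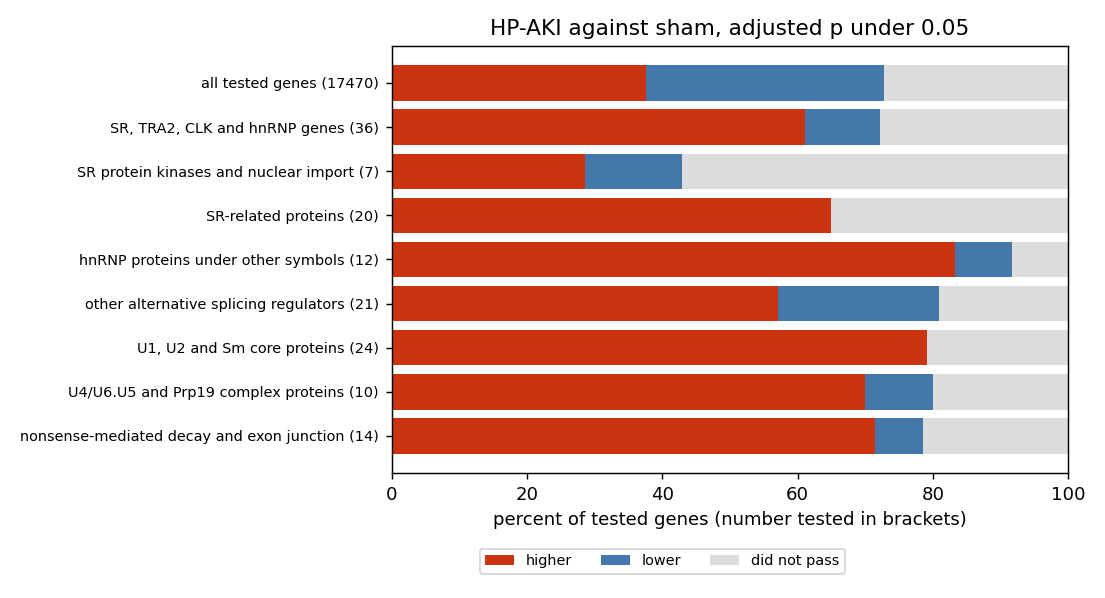
Percent of tested genes (horizontal axis) that passed as higher (red), passed as lower (blue) or did not pass (grey) in HP-AKI, for all 17470 tested genes, the 36 members and 7 lists of splicing and decay genes. The share that rose is 37.7% for all tested genes, 61.1% for the members and 67.6% over the 7 lists together. Members and lists were chosen with earlier results of these data known.

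Several markers moved alongside these genes. The counts are from short lists, and of all tested genes 37.7% passed as higher and 35.2% as lower. Of 11 leukocyte markers, 3 rose and 6 fell, with summed levels of 112 to 147 CPM in sham and 71.0 to 221 CPM in HP-AKI. The 3 that rose were S100a8, S100a9 and Csf3r of neutrophils. None of the 11 was at 0 in all libraries. Of 5 genes of dividing cells, 1 rose and 2 fell, with sums of 19.1 to 63.4 and 28.9 to 42.3 CPM, and of 4 endothelial markers 3 rose, with sums of 357 to 409 and 390.3 to 620 CPM. Podocyte markers were higher in 3 of 4 and lower in 1, those of the thick ascending limb and distal tubule higher in 1 of 4 and lower in 3, and those of the collecting duct lower in 1 of 4 with 3 not passed. Of 4 long noncoding RNAs kept in the nucleus, 3 rose and 1 fell. Malat1 rose by 0.31 ± 0.12 (SE, adjusted p = 0.0372), with overlapping groups, and Neat1, the scaffold of paraspeckles, fell by 1.31 on the log2 scale (SE 0.21), while Meg3, at a low level, rose by 0.99 ± 0.18. The part of these shifts in the splicing genes was not tested.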

How the data were processed

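Kidney RNA of 6 sham and 6 HP-AKI samples was extracted with Trizol and a Qiagen kit and made into libraries with the TruSeq RNA v2 kit, per the labels, a kit that does not mark strand. Tools named in the submitters' processing notes are featureCounts, edgeR and TopHat2 2.1.0, with GRCm38 as the build and no settings. Raw gene counts were deposited as whole numbers, with 1 column for each sample. The table also holds deposited RPKM values, named so per the file headers. The total they were divided by is not given in the sources used here. Computed from counts, RPKM and listed length it came to 2.97 to 3.47 times the count sum, and RPKM served only for this check. The listed gene length, in bases, was deposited with them, which is the other value used here.

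The members and gene lists were chosen with earlier results of these data known. Every member is named, and from each list the 2 passing genes with the largest change, the most abundant one, and genes that spell out a small count or a marker list, the latter chosen after their values were seen. The most abundant gene of 1 list is not reported here. Of 150 list genes, 149 matched by symbol and 1 by identifier. Counts were filtered with filterByExpr, scaled with TMM and tested with edgeR 4.0.16 (limma 3.58.1, R 4.3.3) by a two-sided quasi-likelihood F-test without covariates. The SE is the log2 fold change divided by the square root of F. Gene GC content is that of the longest transcript in GENCODE M21. Alternatives were RLE, upper-quartile and library-size scaling, no filter or 1 CPM in 6 libraries, DESeq2 1.42.0, limma-voom, GC offsets (lowess, span 0.3), leaving out each library, and leaving out sham 1, sham 2 and HP-AKI 8. The ratio of pairs was also computed with 0.5 counts added. The scripts were tested on simulated data. No 2 libraries of a group agreed within counting noise (mean chi-square per gene of at least 9.45). The 1 row whose name fits but that is a pseudogene was left out. Tables and figures were made with matplotlib 3.10.9, numpy 2.4.6 and pandas 2.3.3 in Python 3.11.15.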

Additional observations from a re-analysis of the deposited data

Results flagged for a closer look

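In 11 of the 74 member and group combinations, 1 library lay far from the other 5 of its group by Dixon's criterion at the 95% level. Chance picks out about 1 in 20 such groups. HP-AKI 8 was that library in 7 of the 11. It held 457 CPM of Clk1 (next 295), 160 CPM of Clk4 (next 120.2), 477 CPM of Hnrnph1 (next 381), 79.6 CPM of Hnrnpll (next 60.1), 180.3 CPM of Srsf10 (next 140.5), 167 CPM of Tra2a (next 114) and 299 CPM of Tra2b (next 224). Its slope on GC content was -0.38, the lowest of the HP-AKI libraries, and its part in these values was not tested beyond the fits without it and with GC offsets.

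Srsf4 was apart in both groups, at 24.3 CPM in sham 4 (next 21.4) and 39.7 CPM in HP-AKI 13 (next 31.2). Srsf7 was low in HP-AKI 12 at 95.7 CPM (next 114). Srsf12 was high in sham 2 at 0.182 CPM (next 0.0809), which rests on 6 counts.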

How the results depend on the processing

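No paired analysis was possible because the groups share no sample numbers. The number of members higher in HP-AKI ran from 21 to 25 and the number lower from 4 to 5 over all alternatives. The fifth, without HP-AKI 8, was Hnrnpll. All genes passing were 5761 to 7546 higher and 5402 to 7087 lower, over filters that test different numbers of genes. In the lists, the hnRNP genes under other symbols had 2 lower with RLE, upper-quartile, no filter and DESeq2, 1 to 2 when leaving out 1 library, and 0 with library size only. The SR kinases and importers had 2 lower with upper-quartile scaling and 4 higher with library size only, which also left 0 lower in the later spliceosome and in nonsense-mediated decay. Signs changed in members that did not pass, of which Clk1 and Clk4 passed as higher with GC offsets. With library size only Srsf1 was 0.082 and Hnrnph1 0.041. With GC offsets Srsf1 was 0.035, Hnrnph1 0.0026 and Hnrnpul1 -0.0044. Without sham 1, sham 2 and HP-AKI 8, Srsf1 was 0.037, Srsf9 -0.032 and Hnrnpul1 -0.00058, and the ratio of Srsf1 to Srsf9 was 0.059 and of Clk1 to Clk4 -0.0015. Upper-quartile scaling gave -0.033 for Srsf2 and -0.045 for Srsf9, no filter -0.016 and -0.031, RLE -0.012 and DESeq2 -0.011 for Srsf9. Leaving out 1 library gave -0.052 to 0.19 for Clk1, -0.061 to 0.12 for Clk4, -0.13 to 0.030 for Srsf1, -0.087 to 0.077 for Srsf2, -0.043 to 0.028 for Srsf9 and -0.15 to 0.043 for the ratio of Srsf1 to Srsf9. Of 15 pairs, 9 to 12 passed. The causes of these changes were not tested. Low depth kept Srsf12 out of the test.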
